A study of Mus musculus with 27 samples.

Results

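Goblet cells are the mucus-secreting cells of the airway lining, and in allergic airways interleukin 13, acting through its receptor and the transcription factor STAT6, turns airway secretory cells towards this fate with the help of the transcription factors SPDEF and FOXA3. Clca1 encodes a secreted protein of goblet cells that is packed with the mucins and is barely made in healthy mouse airways. The libraries compared here were 12 of 13 from mice given house dust mite extract (HDM), out of 27 libraries in all, and they were selected on Clca1: the log2(TPM+1) of Clca1 minus the mean of its own group was ranked, and the 6 highest libraries (Clca1-high) were set against the 6 lowest (Clca1-low). TPM (transcripts per M, mega) are scaled to gene length and library. The values of Clca1 in HDM libraries therefore describe the choice and were not tested, and every other gene was tested for moving with it. Clca1 (ENSMUSG00000028255.7) lies on chromosome 3 at 144709578 to 144738537 in GRCm39.

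Whole lungs of male C57Bl/6J mice of 7 to 8 weeks were profiled by polyA-selected bulk RNA sequencing. HDM mice received 5 instillations of 10 µg HDM, an allergen extract, into the airway in 50 µl, and PBS mice received phosphate-buffered saline in its place. At 24 h after the last of these, mice received 100 µl of combustion products (CP, from burning a mix of paper, plastic and plywood) at 2 mg per ml or 100 µl of saline (SAL), and lungs were taken 24 h later. The groups were HDM_CP (n = 7), HDM_SAL (n = 6), PBS_CP (n = 7) and PBS_SAL (n = 7), all of wild-type mice. The Clca1-high class held 3 HDM_CP and 3 HDM_SAL libraries and the Clca1-low class 4 HDM_CP and 2 HDM_SAL libraries. The labels tie 1 number to each library and name no shared animals, so p-values measure the spread between these libraries.

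Among HDM_CP libraries Clca1 stood at 812, 596 and 549 TPM in the Clca1-high class (libraries 96, 67 and 98), against 450, 401, 267 and 41.7 TPM in the Clca1-low class (libraries 49, 45, 97 and 66). Among HDM_SAL libraries it stood at 1383, 1337 and 690 TPM in the Clca1-high class (libraries 54, 99 and 50), against 258 and 27.1 TPM in the Clca1-low class (libraries 100 and 52). The Clca1-low class was uneven: HDM_CP 66 and HDM_SAL 52 lay 3.00 and 3.93 below their group means on the log2 scale, while HDM_CP 49 and 45 lay 0.40 and 0.23 above theirs. Just inside the upper class was HDM_CP 98 at 0.68, and the library left out, HDM_SAL 72, was at 0.66 with 677 TPM. In the PBS groups 13 of 14 libraries held 2.32 to 6.60 TPM, and the library labelled PBS_CP 57 held 297 TPM. That library stands apart from its label in Clca1, enters no comparison of the classes, and is described at the end.

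**Figure D1:**
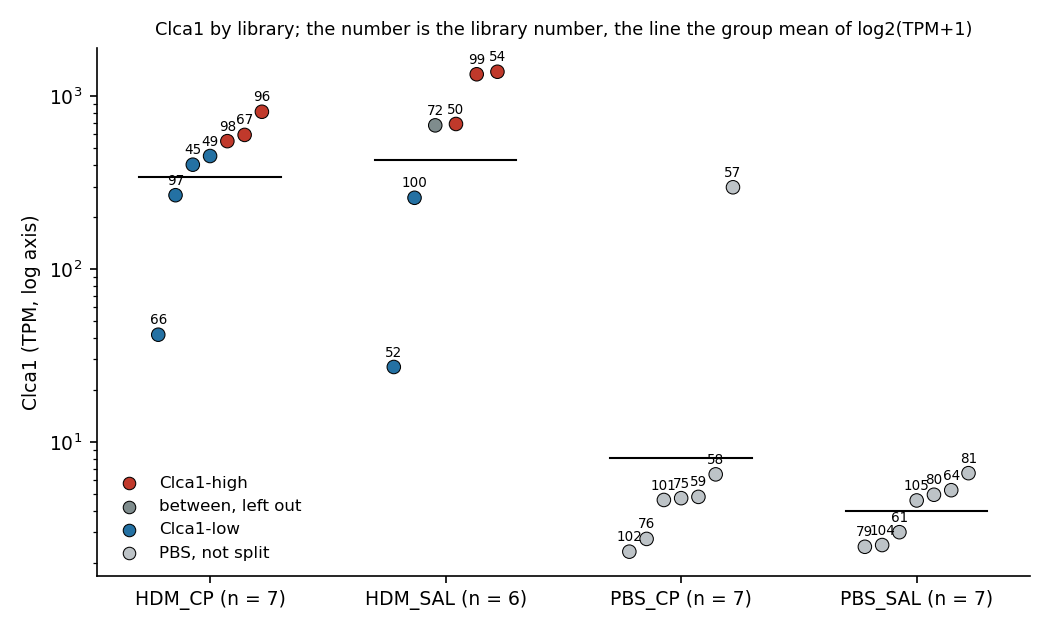
Clca1 in each of the 27 libraries, in TPM on a log axis, by group; colours mark the Clca1 class and lines the group mean of log2(TPM+1). HDM_CP 66 at 41.7 TPM and HDM_SAL 52 at 27.1 TPM lie far below the other HDM libraries, and PBS_CP 57 at 297 TPM lies among them.

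Lung markers were present in both classes. Sftpc, the surfactant gene of alveolar type 2 cells, ranged from 27500 to 32800 TPM in Clca1-high and from 24600 to 30600 TPM in Clca1-low libraries, and Scgb1a1, the main product of club cells, had medians of 82600 TPM in Clca1-high and 71300 TPM in Clca1-low libraries. Ager of alveolar type 1 cells had medians of 2430 TPM in Clca1-high and 2480 TPM in Clca1-low libraries. Estimated counts summed to 67.8 to 84.5 M in HDM libraries. Epx, an eosinophil granule gene, was at or below 0.0815 TPM in all 13 HDM libraries and too low to be tested, so this eosinophil marker was close to undetected. Other eosinophil genes were detected. Prg2 and Ccr3 stood at 9.41 and 7.99 TPM in HDM_CP 67 and at 3.78 and 3.57 TPM in HDM_CP 98. The other HDM libraries held at most 1.22 and 1.06 TPM of them. Of 10 eosinophil genes tested 9 were higher in Clca1-high libraries, with a median log2 fold change of 0.41 and 0 called.

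Goblet cell and mucus genes had the largest median difference of the 35 lists described: 23 of 25 were higher in Clca1-high libraries, with a median log2 fold change of 1.01, against 52.9% of genes positive and a median of 0.01 over all 25790 genes tested. The lists were chosen with earlier results of these data known. B cell and plasma cell genes were also higher for 23 of 25, with a median of 0.19. Between the classes 0 genes were called at a Benjamini-Hochberg adjusted p of 0.05 by the quasi-likelihood test of edgeR, that is 0% of those tested, with a smallest adjusted p of 0.59. At an unadjusted p under 0.05 there were 1796 genes (6.96%), 853 of them higher in Clca1-high libraries (3.31%), and 14 of the 25 goblet genes were among the higher ones. DESeq2 on the same libraries called 40 genes (0.155% of the 25790), 11 higher and 29 lower, while limma voom called 0. DESeq2 gave an adjusted p to 18261 of these genes only. In whole lung, fewer goblet cells and less RNA per goblet cell cannot be told apart.

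Foxa3, which drives goblet cell differentiation, was the goblet gene with no overlap between the classes. It ranged from 0.895 to 1.56 TPM with a median of 1.12 in Clca1-high libraries, against 0.224 to 0.586 TPM with a median of 0.405 in Clca1-low libraries. Its log2 fold change was 1.57 ± 0.34 (SE), with an adjusted p of 0.71 by edgeR and 0.0144 by DESeq2. Over all genes tested, 38 had every Clca1-high library above every Clca1-low library (0.147%), and 40 had the reverse. Spdef, another goblet cell transcription factor, had a median of 4.07 TPM in Clca1-high and 2.03 TPM in Clca1-low libraries, and its classes overlapped (2.40 to 7.96 TPM against 1.10 to 3.05 TPM).

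The gel-forming mucins overlapped between the classes more than Foxa3 did. Muc5ac, the mucin that allergen induces, had 14.1, 19.4 and 40.9 TPM as lowest, median and highest value in Clca1-high libraries, against 1.48, 7.06 and 23.3 TPM in Clca1-low libraries. Its log2 fold change was 1.68 ± 0.72 and was 0.93 ± 0.57 without HDM_CP 66 and HDM_SAL 52. Muc5b, the mucin of resting airways, had 21.3, 33.6 and 50.5 TPM in Clca1-high libraries, against 4.45, 16.7 and 45.8 TPM in Clca1-low libraries. For Muc5ac the overlap came from HDM_CP 49, a Clca1-low library with 23.3 TPM Muc5ac and 45.8 TPM Muc5b. Across the goblet list the median log2 fold change was 0.56 without the 2 libraries of lowest Clca1, with 21 of 25 members positive.

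Products that accompany the mucins showed the same uneven split. Fcgbp, an IgG Fc binding protein of mucus, had 18.8, 31.2 and 67.0 TPM in Clca1-high libraries, against 2.72, 10.8 and 20.1 TPM in Clca1-low libraries. Agr2, a disulfide isomerase needed to fold mucins, had 7.00, 13.9 and 29.1 TPM in Clca1-high libraries, against 1.01, 5.44 and 16.2 TPM in Clca1-low libraries. For Fcgbp, 5 of the 6 Clca1-high libraries exceeded every Clca1-low library, and for Agr2 it was 3. Scin, an actin-severing protein, had 4.70, 8.28 and 15.8 TPM in Clca1-high libraries, against 0.608, 2.38 and 4.73 TPM in Clca1-low libraries. The 2 goblet list members with negative fold changes were St6gal1, a sialyltransferase, and Sytl2, a granule docking protein, at -0.08 and -0.11.

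**Figure D2:**
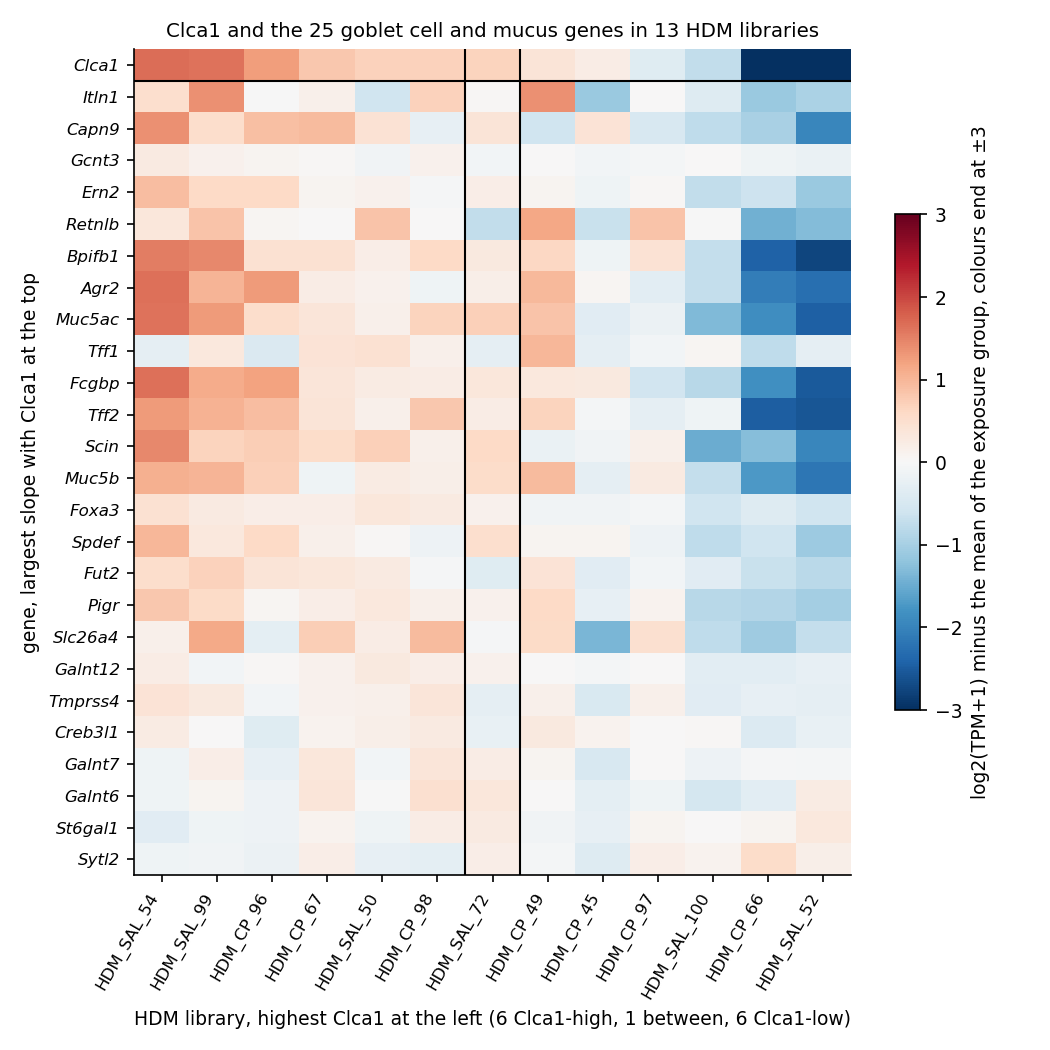
Clca1 and the 25 goblet cell and mucus genes in the 13 HDM libraries, ordered by Clca1 from left to right; colour is log2(TPM+1) minus the mean of the exposure group. The Clca1 row shows the choice of libraries. Outside that row the darkest cells stand in HDM_CP 66 and HDM_SAL 52, but some rows, such as Slc26a4 and Itln1, have their extreme in another library. HDM_CP 49 is pale red for Muc5ac, Muc5b and Agr2 although it was in the Clca1-low class.

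Using the level of Clca1 in place of the classes gave 40 called genes. In this alternative the centred log2(TPM+1) of Clca1 entered as a continuous term over all 13 HDM libraries with the exposure group as covariate, and a slope is the log2 change of a gene per 1 log2 of Clca1. Of 23057 genes tested with edgeR, 40 (0.173%) passed an adjusted p of 0.05, 37 of them higher with Clca1 (0.16%) and 3 lower. The goblet list held 13 of the 37, and 13 of its 25 members were called. Without HDM_CP 66 and HDM_SAL 52 only Fcgbp passed (0.0043% of genes), while all 40 kept their sign and 38 of them had an unadjusted p under 0.05, against 7.3% of all genes. Both fits share 11 libraries, so the second is not independent of the first.

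Fcgbp and Tff2 had the smallest adjusted p of the continuous fit. The slope of Fcgbp was 0.80 ± 0.06 (SE, adjusted p = 4.1e-05) over 13 libraries and 1.12 ± 0.09 (adjusted p = 0.0015) over 11. Tff2, a trefoil peptide of mucus, had a slope of 0.78 ± 0.06 (adjusted p = 4.1e-05) over 13 libraries and 0.65 ± 0.11 over 11. Tff2 ranged from 24.2 to 53.9 TPM in Clca1-high libraries, against 2.58 to 30.1 TPM in Clca1-low libraries, where HDM_CP 66 and HDM_SAL 52 held 2.58 and 2.84 TPM. Among the secreted and folding genes, Muc5ac rose by 0.82 ± 0.08 per 1 log2 of Clca1, Muc5b by 0.63 ± 0.07, Agr2 by 0.86 ± 0.09 and Bpifb1, a secreted lipid-binding protein, by 0.87 ± 0.08. Ern2, the stress sensor of the mucous cell's endoplasmic reticulum, rose by 0.95 ± 0.11.

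The transcription factors Spdef and Foxa3 and the glycosylation gene Fut2 were called as well. The glycosylation genes Gcnt3, Galnt6, Galnt7, Galnt12 and St6gal1 were not called, with adjusted p from 0.085 to 0.74 in the continuous fit. Spdef rose by 0.44 ± 0.07 and Foxa3 by 0.50 ± 0.09, with adjusted p of 0.011 and 0.041, and over 11 libraries their slopes were 0.71 ± 0.15 and 0.84 ± 0.22. Fut2, which adds fucose to mucin sugars, rose by 0.39 ± 0.06 (0.62 ± 0.15 over 11 libraries), and Pigr, which carries IgA across the epithelium, by 0.32 ± 0.05. Slc26a4, the anion exchanger pendrin, was not called, with a slope of 0.31 ± 0.11 and an adjusted p of 0.24. It ranged from 54.8 to 165 TPM in Clca1-high and from 28.4 to 127 TPM in Clca1-low libraries, and the classes overlapped. The intelectin Itln1 and the resistin-like gene Retnlb, both at or below 5.06 TPM in every HDM library, were not called either.

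**Figure D3:**
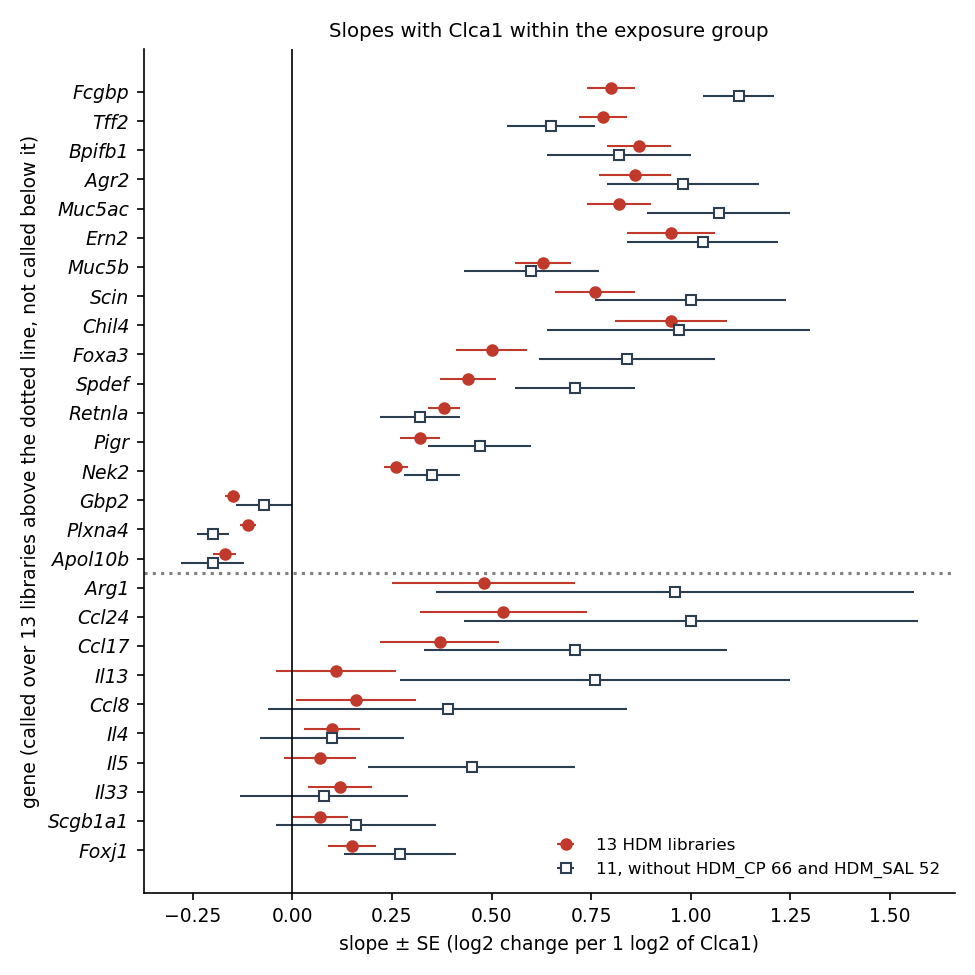
Slopes with their standard errors for 17 called genes and 10 genes that were not called, over 13 HDM libraries and over the 11 without HDM_CP 66 and HDM_SAL 52. The called goblet genes have slopes above 0 in both fits, and the error bars lengthen over 11 libraries, most for Arg1 and Ccl24.

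Outside the goblet list, Retnla and Chil4 were called. Retnla encodes the resistin-like protein RELMα of type 2 inflammation and had 11400, 15000 and 17600 TPM as lowest, median and highest value in Clca1-high libraries, against 4120, 10900 and 14100 TPM in Clca1-low libraries. Its slope was 0.38 ± 0.04 (adjusted p = 0.0010), and HDM_CP 66 and HDM_SAL 52, at 4910 and 4120 TPM, were below all 11 other HDM libraries (9410 to 17600 TPM). Chil4, a chitinase-like protein of allergic airway epithelium, had 184, 325 and 843 TPM in Clca1-high libraries, against 13.6, 87.7 and 270 TPM in Clca1-low libraries, with a slope of 0.95 ± 0.14. Its neighbour Chil3, made mainly by macrophages, was not called, with a slope of 0.11 ± 0.09 and medians of 2280 TPM in Clca1-high and 2160 TPM in Clca1-low libraries.

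Further called genes with a known product were of mixed function. Fer1l6 of the ferlin family had 6.77, 17.1 and 33.6 TPM in Clca1-high libraries, against 0.469, 3.98 and 9.97 TPM in Clca1-low libraries, and a slope of 1.05 ± 0.12. Fxyd4, a regulator of the sodium pump, rose by 0.54 ± 0.07, and Scgb3a1, a secretoglobin of airway secretory cells, by 0.81 ± 0.10. Nek2, a mitotic kinase, rose by 0.26 ± 0.03, Gsto1, a glutathione transferase, by 0.25 ± 0.04, and Mapk13, a p38 kinase, by 0.20 ± 0.03. The paralogs Sprr2a1, Sprr2a2 and Sprr2a3, small proline-rich proteins, were all called, but the first 2 overlap in position on chromosome 3 and all may share reads, so their levels are uncertain.

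Genes that fell with Clca1 were Gbp2, Plxna4 and Apol10b. Gbp2, an interferon-induced GTPase, had a slope of -0.15 ± 0.02, and its 2 highest HDM libraries were HDM_SAL 52 at 108 TPM and HDM_CP 66 at 89.9 TPM, above the 47.4 to 72.7 TPM of the other 11. Without these 2 its slope was -0.07 ± 0.07. Plxna4, a semaphorin co-receptor, had 5.77 to 7.74 TPM in Clca1-high and 7.31 to 10.5 TPM in Clca1-low libraries and a slope of -0.11 ± 0.02. Apol10b had a slope of -0.17 ± 0.03. Of 18 tested cytotoxic lymphocyte and interferon gamma genes 2 had a positive slope and Gbp2 alone was called, but without the 2 lowest libraries 15 of 18 were positive. Ifng itself was at 2.96 TPM in HDM_SAL 52 and 0.864 TPM in HDM_CP 66, against 0.37 to 1.43 TPM in the other 11 libraries.

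RefSeq promoters (250 bases before to 50 after the start, GRCm38.p6) were listed for 26 of the 37 genes called higher. The STAT6 motif (ttc and gaa with any 4 bases between, both strands searched) was present in 6 of the 26 (23.1%), against 8.01% of 27025 genes with a promoter. These were Capn9, Chad, Retnla and the paralogs Sprr2a1, Sprr2a2 and Sprr2a3. The forkhead variant tgtttgc was in 6 of 26 (23.1% against 5.76%), among them the 3 Sprr2a paralogs, and the variant tgtttac in 0 of 26 (against 4.05%). In all 12 motifs were searched. The STAT motif with 3 bases between, which can overlap the first, was in 5 (19.2% against 9.55%), the SPDEF motif aggatg in 5 (19.2% against 19.3%), its variant ccggatg in 1, the KLF motif gggtgtgg in 3 (11.5% against 4.09%) and the NKX2-1 motif caagtg in 2 (7.69% against 15.4%). The ETS motif ccggaagt, the CRE tgacgtca, the CREB3 motif gccacgt and the HNF1 motif were in 0 of 26. A match is a description of letters, not a site. The promoters of 2 genes are shown because they belong to the most abundant gene called, with its STAT6 match in capitals, and to Fcgbp, the gene called over 11 libraries, which has no such match. That of Retnla lies at chr16:48842359-48842658 on the plus strand, the match starting at -145 from the start site, and that of Fcgbp at chr7:28070986-28071285 on the plus strand.
Retnla: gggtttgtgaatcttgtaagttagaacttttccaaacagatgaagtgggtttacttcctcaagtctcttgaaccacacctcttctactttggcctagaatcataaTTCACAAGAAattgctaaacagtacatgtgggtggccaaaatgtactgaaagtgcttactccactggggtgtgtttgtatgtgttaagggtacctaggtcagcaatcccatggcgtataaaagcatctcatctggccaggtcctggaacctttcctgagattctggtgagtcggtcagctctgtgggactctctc
Fcgbp: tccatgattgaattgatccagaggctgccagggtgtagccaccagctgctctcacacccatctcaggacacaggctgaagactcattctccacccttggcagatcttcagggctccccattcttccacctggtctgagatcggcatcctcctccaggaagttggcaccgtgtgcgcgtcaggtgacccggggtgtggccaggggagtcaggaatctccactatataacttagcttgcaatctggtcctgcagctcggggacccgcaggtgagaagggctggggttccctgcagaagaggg

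The signals that act upstream of goblet cells did not pass the test with Clca1. Of 19 tested type 2 cytokines, alarmins and receptors 13 were higher in Clca1-high libraries with a median log2 fold change of 0.14, and 0 were called in either fit. The receptor gene Il13ra2 had the largest log2 fold change of them, 2.00 (unadjusted p = 0.0162 by edgeR). It ranged from 0.142 to 0.661 TPM in Clca1-high and from 0 to 0.445 TPM in Clca1-low libraries. For Il5 the log2 fold change was 0.57 (unadjusted p = 0.0619 by edgeR). Il13 and Il13ra2 were both low in whole lung, which limits the precision of their estimates. Il13, the cytokine that induces goblet cells, had 0.428, 1.61 and 3.76 TPM in Clca1-high libraries, against 0.0992, 1.33 and 2.25 TPM in Clca1-low libraries. Its log2 fold change was 0.76 ± 0.51. Its slope was 0.11 ± 0.15 (adjusted p = 0.77) over 13 libraries and 0.76 ± 0.49 (adjusted p = 0.75) over the 11 without HDM_CP 66 and HDM_SAL 52. HDM_CP 66 and HDM_SAL 52, lowest in Clca1, held 1.52 and 1.05 TPM Il13, within the range of the other 11 libraries. Il33, an epithelial alarmin, had medians of 125 TPM in Clca1-high and 78.0 TPM in Clca1-low libraries, with a slope of 0.12 ± 0.08. Stat6 ranged from 82.6 to 106 TPM in Clca1-high and from 89.9 to 106 TPM in Clca1-low libraries.

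Type 2 chemokines and receptors were higher in Clca1-high libraries for 12 of 14 tested, with a median log2 fold change of 0.65, and none was called by edgeR. Ccl24, the eosinophil attractant eotaxin-2, had 2.60, 6.81 and 32.4 TPM in Clca1-high libraries, against 0.954, 2.78 and 6.09 TPM in Clca1-low libraries, and its log2 fold change of 2.17 ± 0.54 was called by DESeq2 alone. Arg1, an enzyme of alternatively activated macrophages, had 7.08, 22.6 and 145 TPM in Clca1-high libraries, against 4.31, 7.70 and 47.3 TPM in Clca1-low libraries. Single libraries differed in order from Clca1. HDM_SAL 54, highest in Clca1, held 3.06 TPM Ccl24, 7.08 TPM Arg1 and 51.7 TPM Ccl8, a monocyte and eosinophil attractant. HDM_CP 98 held 24.7 TPM Ccl24, 145 TPM Arg1 and 349 TPM Ccl8 at 549 TPM Clca1. HDM_CP 66 held 165 TPM Ccl8, between the 50.2 and 225 TPM found in the rest of the Clca1-low class. The slope of Ccl8 was 0.16 ± 0.15 (adjusted p = 0.66), that of Ccl24 0.53 ± 0.21 and that of Arg1 0.48 ± 0.23. Over the 11 libraries they were 0.39 ± 0.45, 1.00 ± 0.57 and 0.96 ± 0.60, and none was called.

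**Figure D4:**
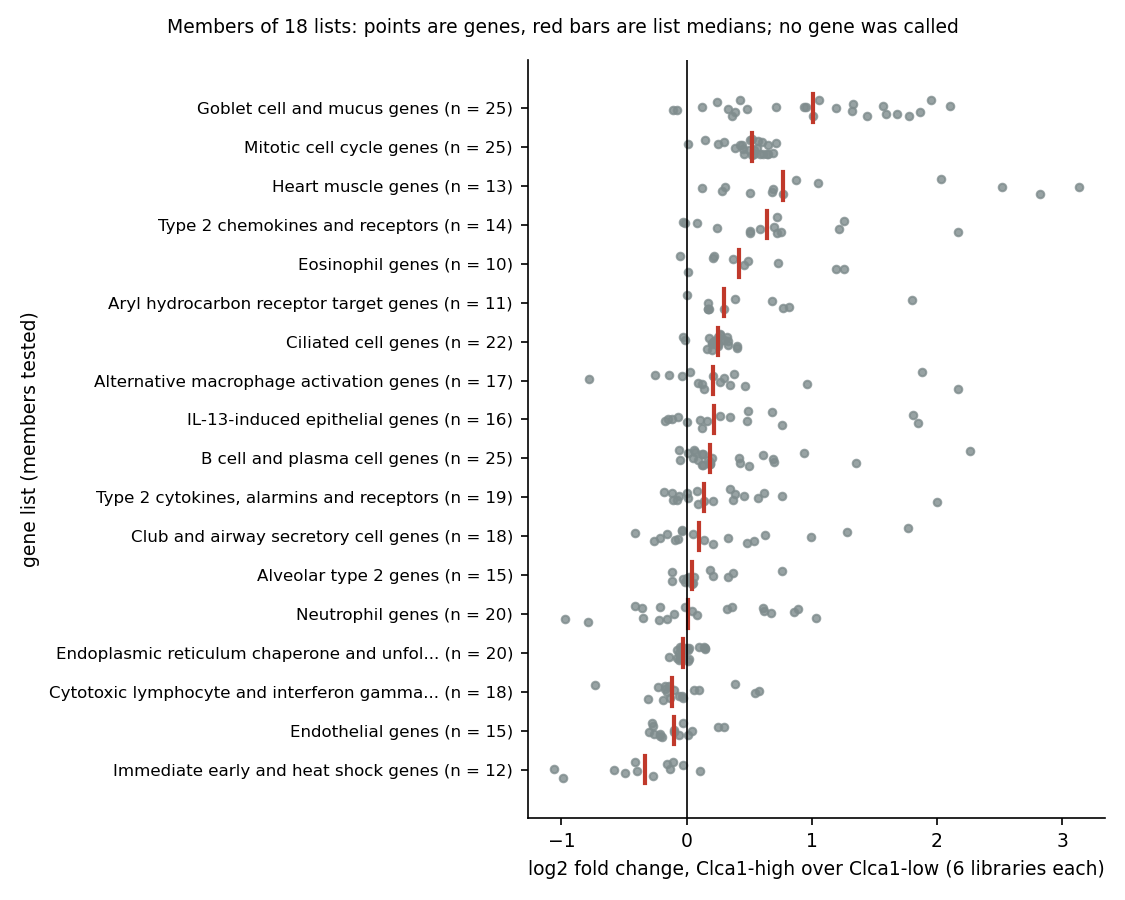
Log2 fold changes of the members of 18 gene lists, Clca1-high over Clca1-low libraries, with the list median as a red bar. The goblet list has the median furthest from 0 at 1.01, the heart muscle list follows at 0.77, and the immediate early and heat shock list lies below 0 at -0.34.

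Mitotic cell cycle genes were all higher in Clca1-high libraries, 25 of 25 with a median log2 fold change of 0.52 and 0 called. Plk1, a kinase of mitotic entry, had 6.07, 9.80 and 11.9 TPM in Clca1-high libraries, against 3.09, 6.07 and 10.2 TPM in Clca1-low libraries. Ciliated cell genes were higher for 20 of 22 with a median of 0.25 and 0 called, and Foxj1, the master factor of ciliated cells, had medians of 79.0 TPM in Clca1-high and 63.4 TPM in Clca1-low libraries. Genes of the endoplasmic reticulum chaperones and unfolded protein response were split, with 9 of 20 positive and a median of -0.03. Club cell genes were split as well, with 10 of 18 positive and a median of 0.09.

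No library measure passed an adjusted p of 0.05 between the classes, while some gene lists leaned to 1 side. Heart muscle genes were higher for 13 of 13 with a median of 0.77, their summed level running from 114 to 282 TPM in Clca1-high and from 96.8 to 175 TPM in Clca1-low libraries. Their mean log2 CPM differed at p = 0.0343 in an exact two-sided permutation test within exposure groups (adjusted over 7 library measures 0.24, smallest p possible 0.00286). The cardiac troponin gene Tnni3 was among the 37 genes called higher. Hemoglobin Hba-a1 did not overlap, at 2220 to 5970 TPM in Clca1-high and 6410 to 11800 TPM in Clca1-low libraries. It was named after its values were seen, and 40 of all 25790 genes tested had no overlap in this direction. The left-out library HDM_SAL 72, just below the Clca1-high class in Clca1, held 10900 TPM Hba-a1, within the Clca1-low range. The mitochondrial share of counts was 3.09% to 3.86% in the 3 Clca1-high HDM_SAL libraries, against 2.32% and 2.50% in the Clca1-low ones, and 2.33% to 2.56% in Clca1-high against 2.16% to 2.71% in Clca1-low HDM_CP libraries. Immediate early and heat shock genes were lower for 11 of 12 with a median of -0.34. With the mitochondrial share as a covariate the continuous fit called 10 genes, and with the ciliated score 16. The class comparison called 0 genes with each of 3 covariates, and the genes at an unadjusted p under 0.05 numbered 669 with the heart muscle score, 1188 with the mitochondrial share and 1557 with the ciliated score, against 1796 without. The part of hemoglobin and of the immediate early and heat shock genes in the results was not tested.

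Genes with the smallest p in the lower direction were not mucus genes. Gja5, the connexin of arterial endothelium, had 27.0, 28.9 and 36.6 TPM in Clca1-high libraries, against 35.4, 39.6 and 43.0 TPM in Clca1-low libraries. Its log2 fold change of -0.35 ± 0.05 had the smallest adjusted p of the class comparison, 0.59, and it was not called. Mamdc2 did not overlap, at 59.6 to 74.9 TPM in Clca1-high and 75.4 to 95.7 TPM in Clca1-low libraries, with a log2 fold change of -0.31 ± 0.06. Kirrel, Golm2 and Slc1a3, a glutamate transporter, also did not overlap, with log2 fold changes of -0.37, -0.38 and -0.27. Among higher genes Trim9, a ubiquitin ligase, did not overlap, at 0.854 to 1.53 TPM in Clca1-high and 0.408 to 0.743 TPM in Clca1-low libraries. Genes picked for a small p tend not to overlap. Over all 25790 genes tested, 40 had no overlap in the lower direction and 38 (0.147%) in the higher. The left-out library HDM_SAL 72 lay within the Clca1-low range for Mamdc2 (92.8 TPM) and Golm2 (87.3 TPM). It lay within the Clca1-high range for Slc1a3 (18.8 TPM) and Trim9 (0.94 TPM). For Kirrel it held 11.9 TPM, level with the lowest Clca1-low library.

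The design also asks whether genes moved with the Clca1 class differently with and without combustion products. The term for the difference of the class effect between HDM_CP and HDM_SAL gave 0 of 25790 genes called by edgeR, with a smallest adjusted p of 0.64, 1953 genes (7.57%) at an unadjusted p under 0.05 and 15 genes called by DESeq2. Without HDM_SAL 52, edgeR called 2, Fth1-ps and Lpp. The Clca1-low HDM_SAL class held 2 libraries, 1 of them HDM_SAL 52. Fitted alone with the continuous term, HDM_CP libraries gave 2 called genes, Fcgbp and Tff2, and HDM_SAL libraries gave 8. Cyp1a1, a target of the aryl hydrocarbon receptor, was not called, with a log2 fold change between the classes of 0.77 ± 0.55 within exposure groups. All 11 targets of this receptor tested had positive fold changes, with a median of 0.30 and 0 called.

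HDM_CP 66 and HDM_SAL 52 were low in goblet genes but above the PBS libraries other than PBS_CP 57 in Ccl8 and Retnla. Both libraries were below the other 11 HDM libraries in 433 of 23057 genes (1.88%) and above them in 775. Of the 37 genes called higher 33 had both at the bottom, a count fixed in part by their choice, since these libraries set the slope. In the goblet list it was 13 of 25, among them Muc5ac at 2.68 and 1.48 TPM, Agr2 at 1.07 and 1.01 TPM and Muc5b at 6.40 and 4.45 TPM. The PBS libraries other than PBS_CP 57 held 0.17 to 0.701 TPM Muc5ac, below both HDM libraries. Their 0 to 1.73 TPM Agr2 took in both, and their 0.611 to 5.23 TPM Muc5b and 0.309 to 14.6 TPM Tff2 reached past HDM_SAL 52 for Muc5b and past both for Tff2. All 3 upper ends came from PBS_SAL 105. The next highest of these PBS libraries held 3.36 TPM Muc5b, below HDM_SAL 52. For Agr2 and Tff2 the next highest, at 1.10 and 3.38 TPM, was still above both HDM libraries. Ccl8 stood at 165 TPM in HDM_CP 66 and 73.4 TPM in HDM_SAL 52, against 3.63 to 12.8 TPM in those PBS libraries, and Retnla at 4910 and 4120 TPM, against 140 to 836 TPM.

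The library labelled PBS_CP 57, picked out by its own Clca1, entered no fit but was high in the genes that moved with Clca1. The goblet list was chosen with earlier results of these data known, so its count here is no independent check. PBS_CP 57 exceeded the other 13 PBS libraries in 29 of the 37 genes called higher, against 1450 of 23057 genes tested (6.29%), and in 14 of the 25 goblet genes. It was also highest in 11 of 22 ciliated cell genes, whose mean log2 CPM of 5.02 was the highest of the 14 PBS libraries (4.24 to 4.83 in the others), and the part of airway content in these counts was not tested. Fcgbp stood at 16.3 TPM in PBS_CP 57, against 1.02 to 2.28 TPM in the other PBS libraries and 2.72 to 67.0 TPM in HDM libraries. Retnla stood at 4530 TPM, against 140 to 836 TPM in the other PBS libraries. Ccl8 was at 19.1 TPM, against 3.63 to 12.8 TPM, which is below every HDM library, and Il13 at 0.178 TPM lay within the other PBS libraries. Whether the label holds for this library was not tested.

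**Figure D5:**
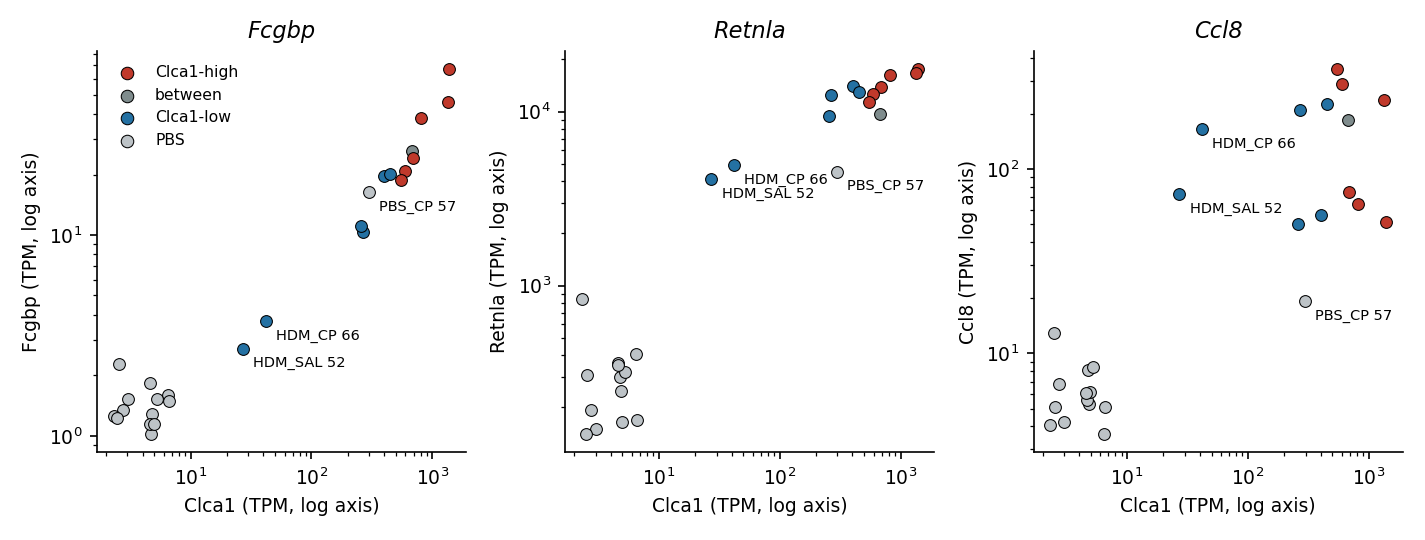
Fcgbp, Retnla and Ccl8 against Clca1 in all 27 libraries, in TPM on log axes, coloured by Clca1 class. PBS_CP 57 sits with the HDM libraries for Clca1 and Fcgbp at 16.3 TPM and apart from them for Ccl8 at 19.1 TPM.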

How the data were processed

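Whole-lung RNA of 27 mice was sequenced after polyA selection, with 20 M read pairs planned per library, per the labels' protocols. The deposited files give estimated counts and TPM per gene (56941 annotated genes). The authors' pipeline used the aligner STAR, with no version in these sources, then StringTie 2 and build GRCm39, per the submitters' processing notes, and GENCODE M33 is in the file name. Deposited estimated counts summed to 56.3 to 84.5 M per library, well above the pairs planned, so they were read as estimates; their size can make counting error look too small for low genes. The deposited TPM, scaled by the authors to a fixed sum per library, carry no depth. Genes without a symbol held 0.060% of counts.

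Estimated counts were rounded and tested with edgeR 4.0.16 in R 4.3.3 (filterByExpr, minimum count 10; TMM; robust quasi-likelihood F test; exposure group as covariate; Clca1 left out; Benjamini-Hochberg at 0.05). TPM classed the libraries, with a pseudocount of 1. Each standard error was the fold change divided by the root of its F statistic. Library measures were compared by exact permutation within exposure groups. Alternatives used DESeq2 1.42.0, limma 3.58.1 (a pseudocount of 1 or 0.1, with a filter at a mean TPM of 0.5 or unfiltered), other scalings, filters and covariates, and each library left out. The fits were also run on simulated data to check the sign of called changes, and no rate of missed or false calls is given. The members, lists and tests were chosen with earlier results of these data known. Some fits were added only after these data were seen. They were those without the 2 libraries of lowest Clca1, and those with the mitochondrial share or heart muscle score as covariate. The fit with the middle library counted as high and the alternatives of the continuous term were added then too.

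Genes were named as follows: a fixed set of 28, the 4 of smallest p in each list, and up to 12 called genes in each direction or, with fewer than 5 called, the 8 of smallest p whose mean log2 CPM reached 1, without predicted genes and receptor segments. All genes called by the continuous term, and cell markers such as the hemoglobins, were added after their values were seen. No source says that counting was stranded, and reads of overlapping genes cannot be told apart. Promoters came from RefSeq tables of GRCm38.p6, matched by symbol, and gene positions from the deposited files (GRCm39).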

Additional observations from a re-analysis of the deposited data

Results flagged for a closer look

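Clca1 was checked in the 2 PBS groups, and 28 named genes and 7 library measures in each Clca1 class. These 72 checks asked whether the highest or the lowest library stood apart by Dixon's gap ratio at the 95% level; 3 did, and chance alone gives about 1 in 20. In PBS_CP the highest Clca1, 297 TPM in library 57, stood apart; this library also enters no comparison of the classes, and its value is far above the highest PBS_SAL library. In the Clca1-low class the highest Epx, 0.0347 TPM, stood apart because the other libraries were listed at 0. In the same class the highest smooth muscle score, a mean log2 CPM of 6.04 in HDM_CP 97, stood apart.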

How the results depend on the processing

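The count of 0 genes between the classes held under every alternative run but these. DESeq2 called 40 genes, of which Foxa3 and Fxyd4 were also called by the continuous term. The continuous term over 13 libraries called 40, and 1 (Fcgbp) without the 2 libraries of lowest Clca1. limma on TPM called 1 with a pseudocount of 1, 1 with 0.1 and 1 without filter (Gm54545 each time), and HDM_SAL libraries alone gave 1 (Mfsd4a). Leaving out each library gave 0 each time. For the difference of the class effect between exposures DESeq2 called 15, and leaving out each library gave 0 to 2 (Fth1-ps and Lpp without HDM_SAL 52).

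The 40 calls of the continuous term depended on the libraries and the tool: DESeq2 gave 488, the run of library numbers as a block 128, the ciliated score as covariate 16, the mitochondrial share 10, HDM_CP alone 2, HDM_SAL alone 8 and the fit without the 2 lowest libraries 1. The runs were formed here from gaps in the library numbers (45 to 64, 66 to 81 and 96 to 105). They are not a batch given by the labels. Leaving out each library gave 5 to 144, with 5 without HDM_SAL 52, 16 without HDM_CP 66, 20 without HDM_SAL 54, 23 without HDM_CP 96, 25 without HDM_SAL 50 and 144 without HDM_SAL 72. Other scaling, filters and limma on TPM gave 33 to 44. The cause was not tested. Fcgbp was called in 24 of 24 alternatives and Tff2 in 23, while Foxa3 was called in 6. No called value changed sign. No paired analysis was possible because library numbers are not shared between groups. Arms of 2 or 3 libraries and weakly expressed genes limit the precision.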
